A study of Mus musculus with 21 samples.

Results

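Messenger RNA of 10 genes was followed in mouse mammary tumours: the macrophage genes Adgre1, Csf1r, Cd68, Mrc1, C1qa, C1qb and C1qc, the growth factor gene Csf1, the chemokine gene Ccl2 and the chemokine receptor gene Ccr2. They were chosen by symbol among 24028 genes of the deposited count table, and all 10 passed the filter on low counts. The tumours came from WAP-Cre/PIK3CA-H1047R mice, in which the promoter of a milk protein gene drives Cre in the mammary epithelium and a mutant PI3K-alpha is expressed there. Every tumour compared here, the vehicle tumours included, carried this transgene pair. The groups were 7 tumours labelled relapse under BYL719 (alpelisib, an inhibitor of PI3K-alpha), 7 labelled stable under BYL719, and 7 from animals given DMSO, called vehicle. The series' design text names the BYL719 groups responding and stable, and how responding relates to relapse is not given, so the sample labels are followed. The labels state no age, dose or time of collection. Tumours are named by group and replicate number. Their titles carry a code of unstated meaning, with 7 codes in relapse, 4 in stable and 3 in vehicle tumours, and 2 codes occur in both BYL719 groups. After the code the titles give a digit and the letter R or L, which entered no test. Whether tumours of 1 code share an animal is not stated, so p-values measure the spread between tumours, which may partly be spread within animals.

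Macrophages in a tumour derive from tissue-resident cells and from blood monocytes. Monocytes that carry the receptor CCR2 leave the marrow and enter tissue toward CCL2 and related chemokines, and they lower CCR2 as they mature. CSF1 acts on the receptor CSF1R, on which survival and proliferation of most macrophages depend. Mature macrophages carry F4/80 (Adgre1), the endosomal glycoprotein CD68 and, in many tissue and tumour populations, the mannose receptor CD206 (Mrc1). They are also a main source of C1q, the 3-chain protein that opens the classical complement pathway and tags debris for engulfment. In bulk tumour RNA, fewer cells of a type and less RNA per cell cannot be told apart.

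All 18 genes of a macrophage identity list were detected above the filter, as were all 7 markers of tumour epithelium. Total counts were 17722622 to 21431465 in relapse, 13337848 to 24648463 in stable and 21043399 to 24873844 in vehicle tumours. Vehicle 2, 6 and 7 stood apart: on the first principal component of the 1000 most variable genes, with 45.7% of the variance, their positions were 77.0, 78.2 and 60.1, followed by stable 1 at 14.8. Summed basal and myoepithelial markers reached 19255 CPM (counts scaled to the library total) among the vehicle tumours, against at most 2222 in relapse and 1503 in stable tumours. Losses and gains of calls without those 3 vehicle tumours are therefore given below. With edgeR's quasi-likelihood test at an adjusted p under 0.05, 1772 of 15792 genes (11.2%) were called between relapse and vehicle, 856 higher and 916 lower (953 and 673 with upper quartile scaling). Between stable and vehicle 2378 genes (15.1%) were called, 1090 higher and 1288 lower, and without the 3 vehicle tumours the shares were 3.28% in relapse and 5.27% in stable tumours. Between relapse and stable 0 were called, with 751 (4.76%) at an unadjusted p under 0.05 and 6 by the DESeq2 Wald test.

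Promoters of 6 of the 10 genes were in the RefSeq promoter table (GRCm38.p6, from 250 bases before to 50 after the start). The start used in that table lies 265 bases inside Ccr2 and 22 bases inside C1qc as the gene coordinates given further on place them, so that the Ccr2 window holds no base upstream of the annotated gene; for the other 4 genes the starts are the same. Those of C1qb and C1qc are shown because these genes had the highest correlation of any pair among the macrophage genes, that of Cd68 because it followed the others least, and that of Ccr2 because it is the gene that differed most. Each is read 5′ to 3′ on the gene's strand, with capitals at matches to GAGGAA or its reverse complement TTCCTC, the core of sites for the myeloid factor PU.1, and to the AP-1 site TGANTCA.
C1qb, chr4:136886151-136886450 (minus): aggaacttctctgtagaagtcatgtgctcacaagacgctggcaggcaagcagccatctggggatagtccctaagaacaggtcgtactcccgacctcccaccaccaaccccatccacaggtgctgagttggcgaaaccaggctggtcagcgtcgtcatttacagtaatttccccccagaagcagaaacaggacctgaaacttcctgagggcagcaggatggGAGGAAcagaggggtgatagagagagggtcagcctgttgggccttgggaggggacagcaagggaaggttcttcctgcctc
C1qc, chr4:136892865-136893164 (minus): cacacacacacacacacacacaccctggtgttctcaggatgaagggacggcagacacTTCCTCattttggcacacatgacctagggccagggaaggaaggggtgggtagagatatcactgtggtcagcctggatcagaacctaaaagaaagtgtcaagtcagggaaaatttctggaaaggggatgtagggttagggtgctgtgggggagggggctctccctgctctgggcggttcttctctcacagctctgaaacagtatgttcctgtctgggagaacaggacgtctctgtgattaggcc
Cd68, chr11:69666121-69666420 (minus): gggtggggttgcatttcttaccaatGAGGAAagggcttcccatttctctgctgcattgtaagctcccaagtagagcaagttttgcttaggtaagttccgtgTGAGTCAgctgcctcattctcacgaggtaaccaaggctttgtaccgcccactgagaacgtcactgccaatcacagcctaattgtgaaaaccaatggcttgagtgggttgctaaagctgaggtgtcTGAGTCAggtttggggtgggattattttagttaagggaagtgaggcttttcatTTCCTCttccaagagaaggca
Ccr2, chr9:124101933-124102232 (plus): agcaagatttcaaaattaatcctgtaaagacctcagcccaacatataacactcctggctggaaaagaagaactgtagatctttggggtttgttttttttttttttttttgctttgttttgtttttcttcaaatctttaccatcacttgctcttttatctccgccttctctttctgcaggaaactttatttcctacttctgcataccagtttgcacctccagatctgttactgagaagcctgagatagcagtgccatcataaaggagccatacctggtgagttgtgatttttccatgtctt
C1qb held 1 PU.1 core, starting 30 bases before the table's start, and C1qc held 1, at 193 bases before it. Cd68 held 2 PU.1 cores and 2 AP-1 sites, and Mrc1, not printed, 3 PU.1 cores. Neither set of letters was in the windows of Ccr2 or Csf1. Of 27025 promoters of the same length, 28.3% held the PU.1 core and 7.93% the AP-1 site, and no matches to the 2 motifs overlapped in the windows examined.

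The genes lie on several chromosomes of mouse build mm10 (coordinates from a RefSeq table of GRCm38.p6). Ccr2 occupies chr9:124101918-124109140 on the plus strand. Ccl2 lies at chr11:82035577-82037452 (plus) near Ccl8 and Ccl11, Csf1 at chr3:107741048-107760469 (minus) and Csf1r at chr18:61105572-61131139 (plus). Exons of Csf1r overlap those of Hmgxb3 on the other strand by 873 bases, and whether counting used strand is not given. The C1q chains stand side by side on the minus strand of chromosome 4, C1qb at chr4:136880126-136886200, C1qc at chr4:136889801-136892936 and C1qa at chr4:136895916-136898844. Adgre1 lies at chr17:57358581-57483529 (plus), Mrc1 at chr2:14229414-14332023 (plus) and Cd68 at chr11:69664213-69666170 (minus).

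Per unit of gene length, C1qa was the most abundant of the 10 genes, at 105 ± 34.1 RPKM (CPM per kilobase of gene length, mean ± SD over 21 tumours). C1qc (38.2 ± 9.85 RPKM), C1qb (37.2 ± 10.9 RPKM) and Cd68 (36.4 ± 21.2 RPKM) came next and did not differ beyond their spread. Mrc1 was at 27.5 ± 14.1 RPKM, Csf1r at 17.3 ± 4.32 RPKM, Csf1 at 14.1 ± 3.84 RPKM and Adgre1 at 11.6 ± 4.21 RPKM, and neighbours in this order too lay within 1 SD of each other. The lowest levels were those of Ccr2 (5.51 ± 4.94 RPKM) and Ccl2 (3.56 ± 2.28 RPKM), which rested on 23 to 184 reads of Ccl2 per tumour.

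**Figure D1:**
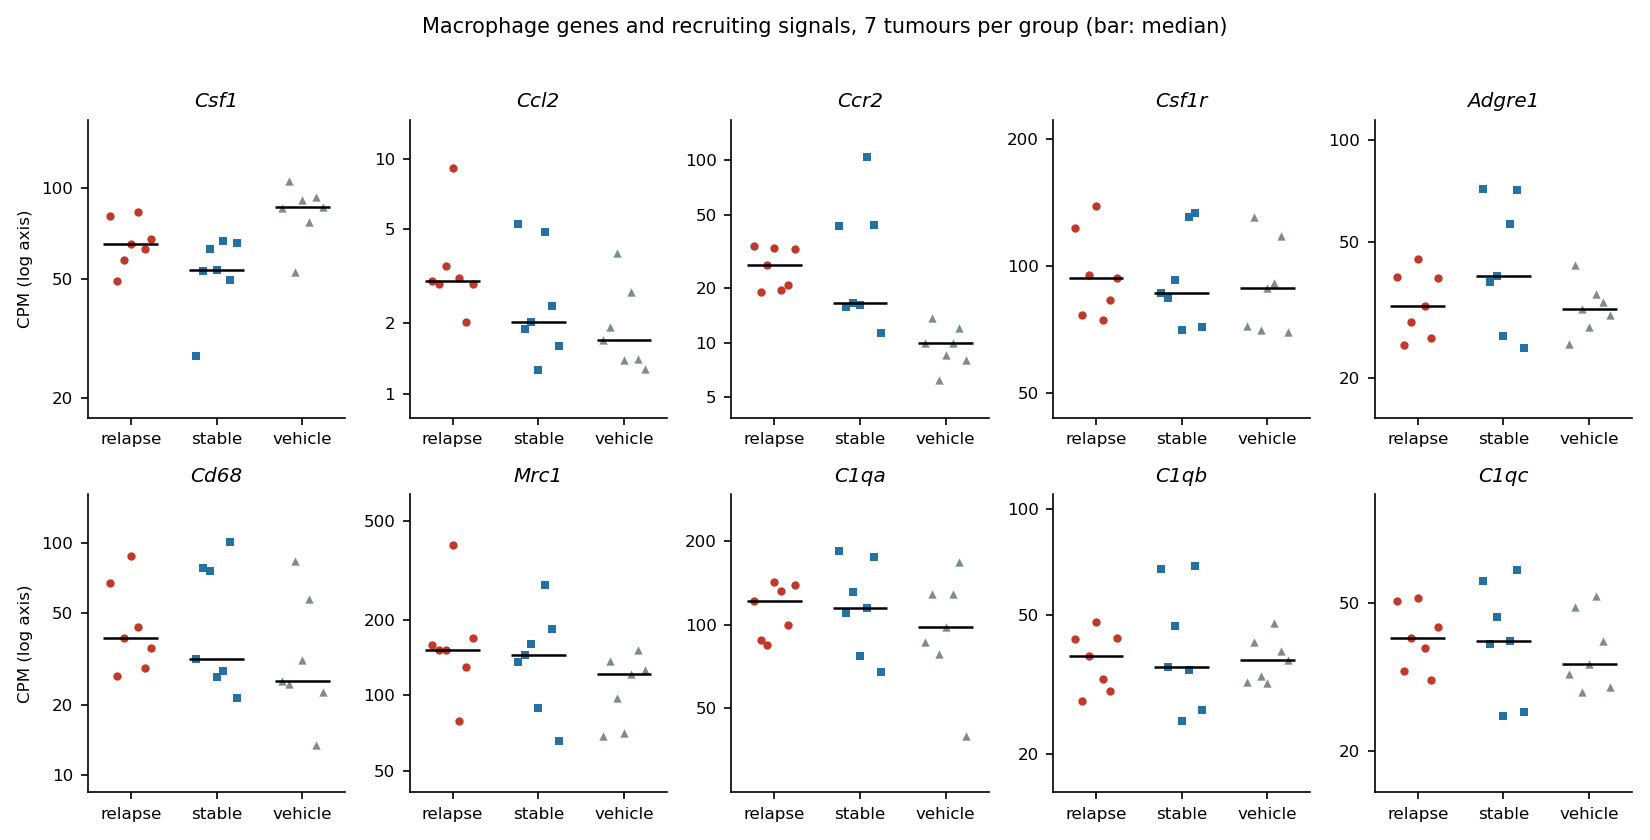
CPM (log axes) of the 10 genes in each of 7 relapse, 7 stable and 7 vehicle tumours, 1 point per tumour, with the group median as a bar. Ccr2 lies at 18.9 CPM or higher in every relapse tumour and at 13.7 CPM or lower in every vehicle tumour, whereas the 3 groups overlap for each of the macrophage genes.

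Against vehicle, 1 of the 10 genes was called in relapse, higher, beside 11.2% of all genes (5.42% higher and 5.8% lower). In stable tumours 2 were called, 1 higher and 1 lower, beside 15.1% of all genes (6.9% higher and 8.16% lower). Ccr2, the receptor of CCL2 on inflammatory monocytes, was the only one of the 10 genes to rise in both BYL719 groups. Its level ranged over 18.9, 26.6 and 34.0 CPM (lowest, median and highest) in relapse tumours, 11.3, 16.5 and 104 CPM in stable tumours, and 6.20, 9.96 and 13.7 CPM in vehicle tumours. All relapse tumours lay above all vehicle tumours, which held for 3.01% of all genes in either direction. Among the stable tumours 6 of 7 lay above every vehicle tumour, and stable 7 lay within the vehicle range; 2.87% of all genes did not overlap there. In relapse the log2 fold change against vehicle was 1.43 ± 0.39 (SE, 95% interval 0.61 to 2.26), a 2.70-fold higher level (edgeR adjusted p = 0.0240). In stable tumours it was 1.88 ± 0.40 (1.04 to 2.71), 3.67-fold (edgeR adjusted p = 0.00547). The relapse call was lost without vehicle 2, 6 and 7 (1.61, adjusted p = 0.0809), without vehicle 7 alone (adjusted p = 0.0508) and with counts summed over each title code (1.45, adjusted p = 0.128), and the stable call with those sums (2.15, adjusted p = 0.0604). Both comparisons use the same vehicle tumours.

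The spread of Ccr2 within the stable group was wide. Stable 5 had 104 CPM, stable 1 and 6, which share a title code, had 43.7 and 44.1 CPM, and the remaining 4 had 11.3 to 16.5 CPM. Stable 1 and 5 alone of all tumours have the digit 1 after the code in their titles, and its part was not tested. Without stable 5 the log2 fold change against vehicle was 1.33, the lowest of the values with 1 tumour left out, and the call remained. CCR2 is also found on dendritic, T and NK cells. The summed level of dendritic cell markers (7 of 9 above the filter) was 10.4 to 23.8 CPM in relapse, 9.31 to 59.5 CPM in stable and 13.1 to 28.9 CPM in vehicle tumours, with the highest value in stable 5. That of T and NK cell markers (7 of 9 above the filter) was 3.83 to 17.0, 5.97 to 31.5 and 7.86 to 32.2 CPM in relapse, stable and vehicle tumours, and stable 5 was the highest of its group. Of the markers of both lists, Nkg7, Batf3 and Xcr1 did not pass the filter, and the deposited counts held no gene with the symbol Trbc2. Summed skeletal muscle markers were 185 to 7035 CPM in relapse, 215 to 4049 CPM in stable (highest in stable 5) and 138 to 535 CPM in vehicle tumours. The part of these cells in the Ccr2 difference was not tested.

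Ccl2, the ligand of CCR2, did not pass the test. It was at 2.02, 3.01 and 9.18 CPM (lowest, median and highest) in relapse, 1.26, 2.01 and 5.30 CPM in stable and 1.28, 1.69 and 3.97 CPM in vehicle tumours. All 7 relapse tumours lay above the vehicle median, but 6 of them lay below the highest vehicle tumour. The log2 fold changes against vehicle were 0.89 (95% interval 0.09 to 1.69, edgeR adjusted p = 0.139) in relapse and 0.43 (-0.38 to 1.23, adjusted p = 0.473) in stable tumours. Relapse 4 alone had 9.18 CPM, and the other 6 relapse tumours lay between 2.02 and 3.48 CPM.

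**Figure D2:**
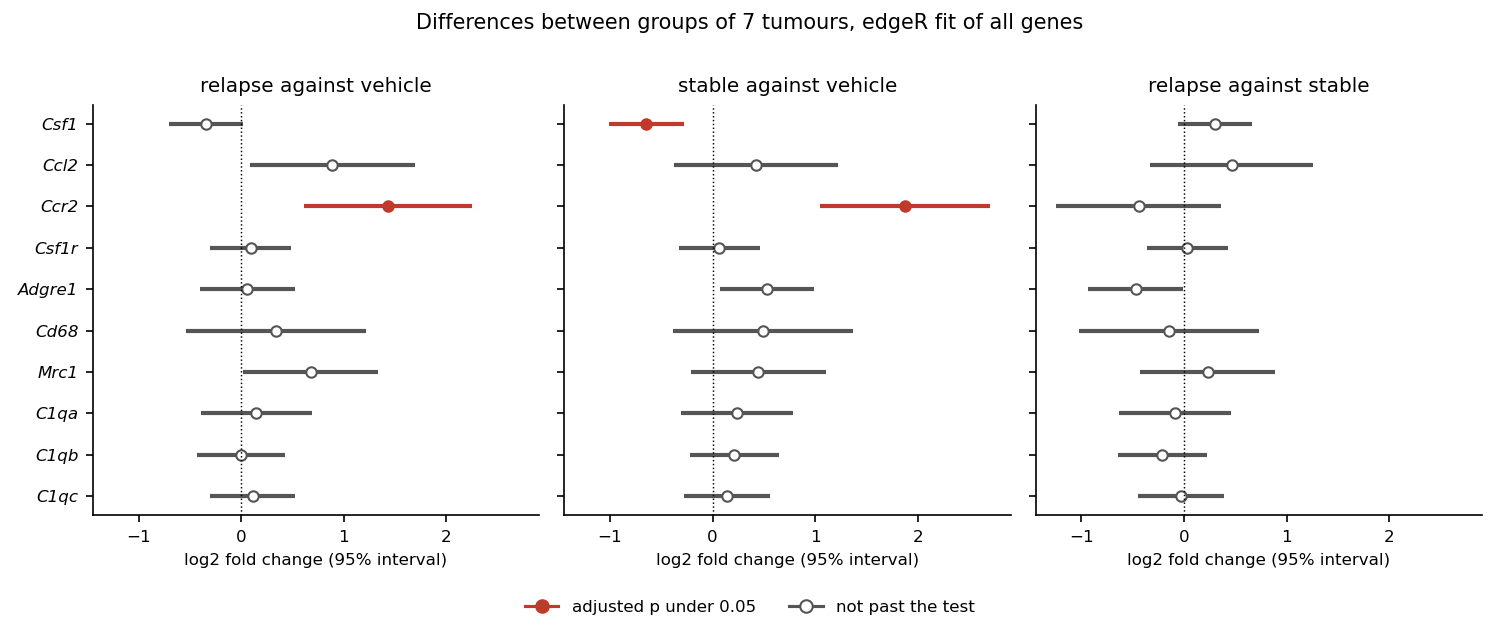
Log2 fold changes of the 10 genes with 95% intervals in the 3 comparisons of groups of 7 tumours, from 1 edgeR fit of all genes; filled red points passed the test. Ccr2 passed it in relapse and in stable against vehicle (1.43 and 1.88), Csf1 in stable against vehicle (-0.65), and no gene between relapse and stable.

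Csf1, the growth factor of the macrophage lineage, fell in stable tumours. It was at 27.6, 53.5 and 66.7 CPM (lowest, median and highest) in stable and 52.7, 86.5 and 106 CPM in vehicle tumours. The groups overlapped, since vehicle 3, at 52.7 CPM, lay below 5 of the 7 stable tumours, while all 7 stable tumours lay below the vehicle median. The log2 fold change was -0.65 ± 0.17 (95% interval -1.01 to -0.28, edgeR adjusted p = 0.0197), and it was lost without vehicle 2, 6 and 7 (-0.50, adjusted p = 0.157) and with counts summed over each title code (-0.58, adjusted p = 0.122). In relapse tumours Csf1 was at 49.1, 65.4 and 83.5 CPM and did not pass the test (-0.34, interval -0.71 to 0.02, adjusted p = 0.205), although all 7 lay below the vehicle median. Its receptor gene Csf1r had medians of 93.8 CPM in relapse, 86.6 CPM in stable and 88.9 CPM in vehicle tumours, within 70.1 to 139 CPM in all 21. The log2 fold changes of Csf1r against vehicle were 0.10 in relapse (interval -0.30 to 0.49) and 0.06 in stable tumours (-0.33 to 0.46).

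Of the macrophage surface genes none passed the test against vehicle. Adgre1, which encodes F4/80, was at 25.1, 32.5 and 44.6 CPM (lowest, median and highest) in relapse, 24.5, 39.9 and 71.5 CPM in stable and 25.1, 31.8 and 42.8 CPM in vehicle tumours. Relapse and vehicle covered nearly the same range (log2 fold change 0.06, interval -0.40 to 0.52). In the stable group stable 1 and 6, with 71.5 and 70.9 CPM, and stable 5, with 56.4 CPM, lay above every relapse and vehicle tumour, and the other 4 lay within 24.5 to 39.9 CPM. Stable against vehicle gave 0.53 (interval 0.07 to 0.99, edgeR adjusted p = 0.108).

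Mrc1, the mannose receptor gene, was at 79.2, 152 and 399 CPM in relapse, 65.5, 145 and 276 CPM in stable and 68.9, 121 and 152 CPM in vehicle tumours. The log2 fold change in relapse was 0.68 (interval 0.02 to 1.34, edgeR adjusted p = 0.171) and in stable tumours 0.44 (-0.21 to 1.10, adjusted p = 0.350). Relapse 4 had the highest Mrc1, Csf1r, Adgre1 and Cd68 of its group, at 399, 139, 44.6 and 88.3 CPM, and the highest Ccl2. Cd68, the endosomal glycoprotein gene, was at 26.7, 38.9 and 88.3 CPM in relapse, 21.5, 31.5 and 102 CPM in stable and 13.4, 25.6 and 84.2 CPM in vehicle tumours, the widest relative spread among the 7 macrophage genes. Its log2 fold changes against vehicle were 0.34 in relapse (interval -0.53 to 1.22) and 0.49 in stable tumours (-0.39 to 1.36). Without vehicle 2, 6 and 7 they were -0.07 and 0.08.

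The 3 chains of C1q did not pass the test in any comparison. C1qa was at 84.2, 122 and 142 CPM in relapse, 67.3, 115 and 184 CPM in stable and 39.9, 98.4 and 168 CPM in vehicle tumours. C1qb was at 28.3, 38.2 and 47.7 CPM, 24.9, 35.4 and 68.8 CPM, and 31.8, 37.1 and 47.2 CPM in relapse, stable and vehicle tumours, and C1qc at 31.1, 40.3 and 51.5 CPM, 24.8, 39.5 and 61.1 CPM, and 28.8, 34.4 and 52.1 CPM. Relapse and vehicle overlapped almost fully for each chain, and stable 1 and 6 were the highest of the 21 tumours for all 3. The log2 fold changes in relapse were 0.15 for C1qa (interval -0.40 to 0.69), -0.0008 for C1qb (-0.43 to 0.43) and 0.11 for C1qc (-0.31 to 0.53). In stable tumours they were 0.24 (-0.31 to 0.78), 0.21 (-0.22 to 0.64) and 0.14 (-0.28 to 0.56). The chains occur in equal numbers in the C1q molecule. The CPM ratio of C1qb to C1qc stayed between 0.846 and 1.25 in the 21 tumours. The ratio of C1qa to C1qb was 1.08 in vehicle 7, with C1qa at 39.9 CPM, and 2.21 to 4.26 in the other 20 tumours (median of all 2.98).

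Relapse and stable tumours did not differ in any of the 10 genes by edgeR's test. The lowest unadjusted p, 0.0458, was that of Adgre1, with a log2 fold change of -0.47 (interval -0.93 to -0.01, edgeR adjusted p = 0.990). Ccr2 differed by -0.44 (interval -1.25 to 0.36), Ccl2 by 0.47 (-0.33 to 1.26) and Csf1 by 0.30 (-0.06 to 0.66). For Ccr2 the medians ran the other way from the means: 7 of 7 relapse tumours lay above the stable median, and the mean was 26.4 ± 6.85 CPM in relapse and 35.9 ± 33.0 CPM in stable tumours (SD, n = 7 each), with stable 5 at 104 CPM. Without stable 5 the difference was 0.10. The intervals were -0.36 to 0.43 for Csf1r, -0.63 to 0.45 for C1qa, -0.65 to 0.22 for C1qb and -0.45 to 0.39 for C1qc.

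To set Ccr2 against the amount of macrophage RNA, log2 ratios to Adgre1 were tested by exact permutation, two-sided, over the 3432 divisions of 14 tumours, 12 tests in all, with CPM + 1. The log2 ratio of Ccr2 to Adgre1 averaged -0.36 ± 0.19 in relapse and -0.67 ± 0.72 in stable tumours, against -1.65 ± 0.30 in vehicle tumours (SD, n = 7 each). With CPM + 1 every relapse and every stable tumour lay above every vehicle tumour. With CPM + 5 the stable and vehicle ratios overlapped (difference 0.77, adjusted p = 0.0105 by exact permutation). Relapse and vehicle ratios then still did not overlap (difference 1.03, adjusted p = 0.00699 by exact permutation). With CPM + 1 the differences were 1.30 and 0.98, each with an exact permutation p = 0.000583, the smallest that 7 against 7 allows. Their Benjamini-Hochberg adjusted p was 0.0035. A ratio to Adgre1 above the vehicle range in all 7 tumours was reached by 74 of 15791 genes (0.469%) in relapse and by 4 (0.0253%) in stable tumours. The median difference over all genes was -0.04 in relapse and -0.43 in stable tumours, where Adgre1 itself had a log2 fold change of 0.53. Without vehicle 2, 6 and 7 the groups again did not overlap, and the relapse difference passed the test (1.34, adjusted p = 0.0364 by exact permutation) while the stable one did not (1.02, adjusted p = 0.0606). With means per title code both ratios still did not overlap with vehicle but missed the test (adjusted p = 0.0545 and 0.257 by exact permutation). In relapse, with 7 codes against 3, the unadjusted exact permutation p of 0.00833 was the smallest possible, so the test could give no lower value. In stable tumours, with 4 codes against 3, the unadjusted exact permutation p was 0.0857 and the smallest possible 0.0286.

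**Figure D3:**
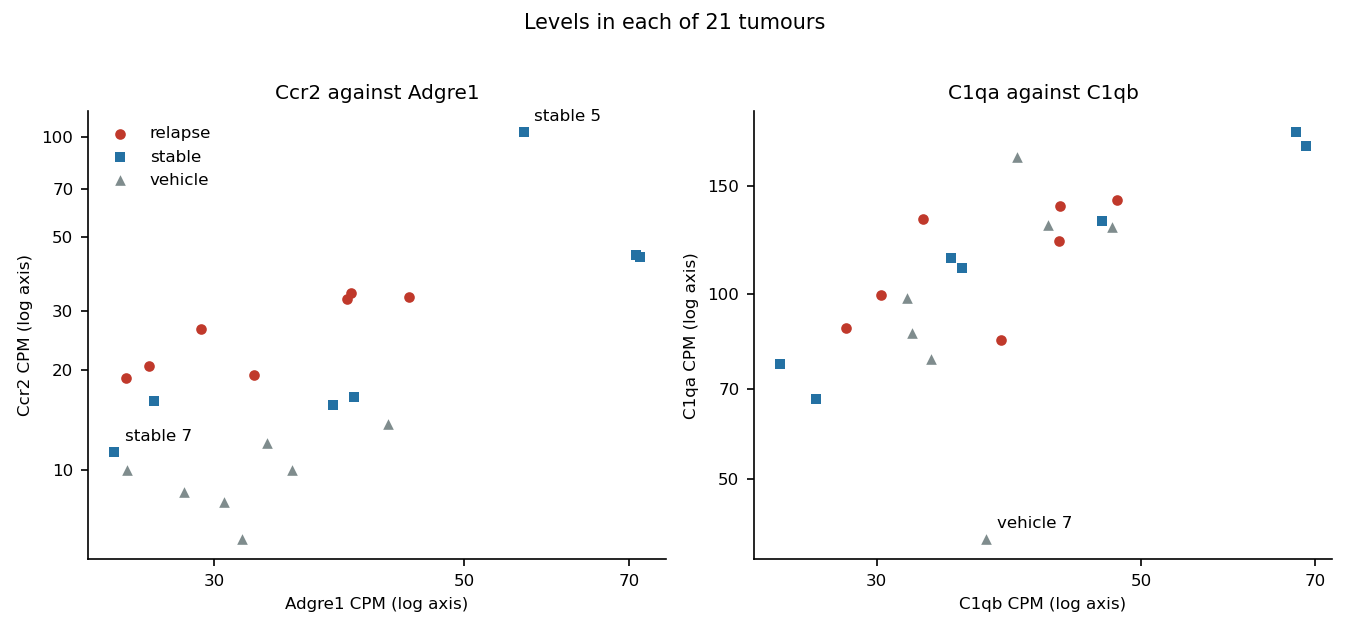
CPM of Ccr2 against Adgre1 (left) and of C1qa against C1qb (right) in each of 21 tumours, both axes logarithmic, coloured by group. At like Adgre1 the relapse and stable tumours carry more Ccr2 than the vehicle tumours, and vehicle 7 has a C1qa level of 39.9 CPM at a C1qb level of 37.1 CPM.

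With Csf1r in place of Adgre1 the Ccr2 differences were 1.24 in relapse and 1.34 in stable tumours, again with no overlap with vehicle (adjusted p = 0.0035 by exact permutation). The share of all genes without overlap was not computed for ratios to Csf1r. Cd68 and Mrc1 relative to Adgre1 did not pass the test in any comparison (adjusted p = 0.137 to 0.924 by exact permutation). The ratio of C1qa to Adgre1 was higher in relapse, at 1.74 ± 0.17, than in stable tumours, at 1.40 ± 0.21 (SD, n = 7 each; difference 0.35, exact permutation p = 0.00641, adjusted 0.0256, 7 of 7 relapse tumours above the stable median). C1qa did not stand apart from other genes here: the median gene differed by 0.39 in the same direction, 7.78% of all genes were higher with an unadjusted exact p under 0.05, and with Csf1r in place of Adgre1 the difference was -0.07.

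Across the 21 tumours, 5 relations between ligand, receptor and macrophage genes were computed on log2(CPM + 1), with permutation p-values adjusted over the 5. Ccr2 was correlated with Adgre1 (Pearson r = 0.68, permutation adjusted p = 0.0034; Spearman rho = 0.58, adjusted p = 0.0165), with Ccl2 (r = 0.59, adjusted p = 0.0128; rho = 0.61, adjusted p = 0.0165), and Ccl2 with Adgre1 (r = 0.51, adjusted p = 0.0331; rho = 0.49, adjusted p = 0.0441). The relations of Csf1 to Csf1r (r = 0.17, adjusted p = 0.455; rho = 0.12, adjusted p = 0.738) and to Adgre1 (r = -0.38, adjusted p = 0.107; rho = -0.08, adjusted p = 0.738) did not pass these permutation tests. Without the 2 tumours farthest from the median of the gene on the x axis, r was 0.55 for Ccr2 and Adgre1 and 0.56 for Ccl2 and Ccr2 (both adjusted p = 0.0287 by permutation), but the rank correlations missed the test (rho = 0.44, adjusted p = 0.146, and rho = 0.53, adjusted p = 0.109). For Ccl2 and Adgre1 r was then 0.38 (permutation adjusted p = 0.190), over a narrower range of Ccl2. Within groups, Ccr2 and Adgre1 had r = 0.85 in relapse, 0.80 in stable and 0.51 in vehicle tumours. Ccl2 and Ccr2 had r = 0.48 and 0.85 in relapse and stable tumours but r = -0.44 in vehicle tumours. Of these within-group values of Ccr2, with 7 tumours each, none passed an exact permutation test after adjustment. Ccl2 and Adgre1 had r = 0.65 in relapse, 0.79 in stable and 0.23 in vehicle tumours. In stable tumours their rank correlation passed the exact permutation test (rho = 0.93, adjusted p = 0.0337), while r did not (adjusted p = 0.0761). Tumours of 1 title code may not be independent. With means per title code, Ccr2 with Adgre1 and Ccl2 with Ccr2 passed the permutation tests by both coefficients. Ccl2 with Adgre1 then passed by neither (r = 0.55, adjusted p = 0.0740, and rho = 0.54, adjusted p = 0.0818, by permutation).

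Other chemokine genes that attract monocytes and related cells passed the test where Ccl2 did not. The list of such chemokines held 13 genes, the eosinophil chemokine gene Ccl11 included. Of these, 4 rose, Ccl11 among them, and 1 fell in relapse against vehicle. The same count was found in stable against vehicle, which shares the vehicle tumours. Over all genes 5.42% rose and 5.8% fell in relapse, and 6.9% rose and 8.16% fell in stable tumours. The list's median log2 fold change was 0.89 in relapse and 0.52 in stable tumours, beside -0.02 and -0.005 over all genes. Ccl9, a ligand of CCR1, was at 37.8 to 53.3 CPM in relapse, 36.3 to 68.5 CPM in stable and 8.78 to 39.4 CPM in vehicle tumours, and only vehicle 5 reached the range of either BYL719 group. It rose by 1.10 ± 0.22 in relapse (edgeR adjusted p = 0.00527) and 1.19 ± 0.22 in stable tumours (adjusted p = 0.00212), and without vehicle 2, 6 and 7 it was called as well (0.87, adjusted p = 0.0398, and 0.96, adjusted p = 0.0170). Ccl6, a related chemokine of myeloid cells, rose by 1.29 in relapse (edgeR adjusted p = 0.00864) and 1.14 in stable tumours (adjusted p = 0.0145). Both calls were lost without those 3 vehicle tumours (0.98, edgeR adjusted p = 0.0688, in relapse and 0.83, adjusted p = 0.10, in stable tumours).

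Ccl11, the eosinophil chemokine eotaxin, rose by 1.46 in relapse (edgeR adjusted p = 0.0228) and 1.43 in stable tumours (adjusted p = 0.0222). Ccl8, a chemokine of macrophages, was at 3.92, 11.2 and 17.8 CPM in relapse, 4.11, 6.11 and 25.6 CPM in stable and 2.51, 3.30 and 6.50 CPM in vehicle tumours. It rose by 1.41 (edgeR adjusted p = 0.0382) and 1.31 (adjusted p = 0.0430), and stable 5 was the highest, as it was for Ccr2. Cx3cl1, the membrane-bound ligand of CX3CR1, fell to 46.6 ± 16.2 CPM in relapse and 39.8 ± 13.3 CPM in stable tumours, against 86.3 ± 31.7 CPM in vehicle tumours (-0.89, edgeR adjusted p = 0.0287, and -1.12, adjusted p = 0.00835). Without vehicle 2, 6 and 7 the calls of Ccl11, Ccl8 and Cx3cl1 were lost. Ccl11 was then at 1.51 and 1.49 in relapse and stable tumours (edgeR adjusted p = 0.0924 and 0.0888). Ccl8 was at 1.88 and 1.79 (adjusted p = 0.0594 and 0.0586), so that neither gene's rise was smaller than with all tumours. Cx3cl1, at -0.49 and -0.71 (adjusted p = 0.314 and 0.126), differed less than with all tumours. In relapse the chemokine genes Cxcl12 (1.69, edgeR adjusted p = 0.0464) and Cxcl14 (1.37, adjusted p = 0.0352) then became calls, against 0.10 and 0.93 with the 3 tumours (adjusted p = 0.925 and 0.0530).

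**Figure D4:**
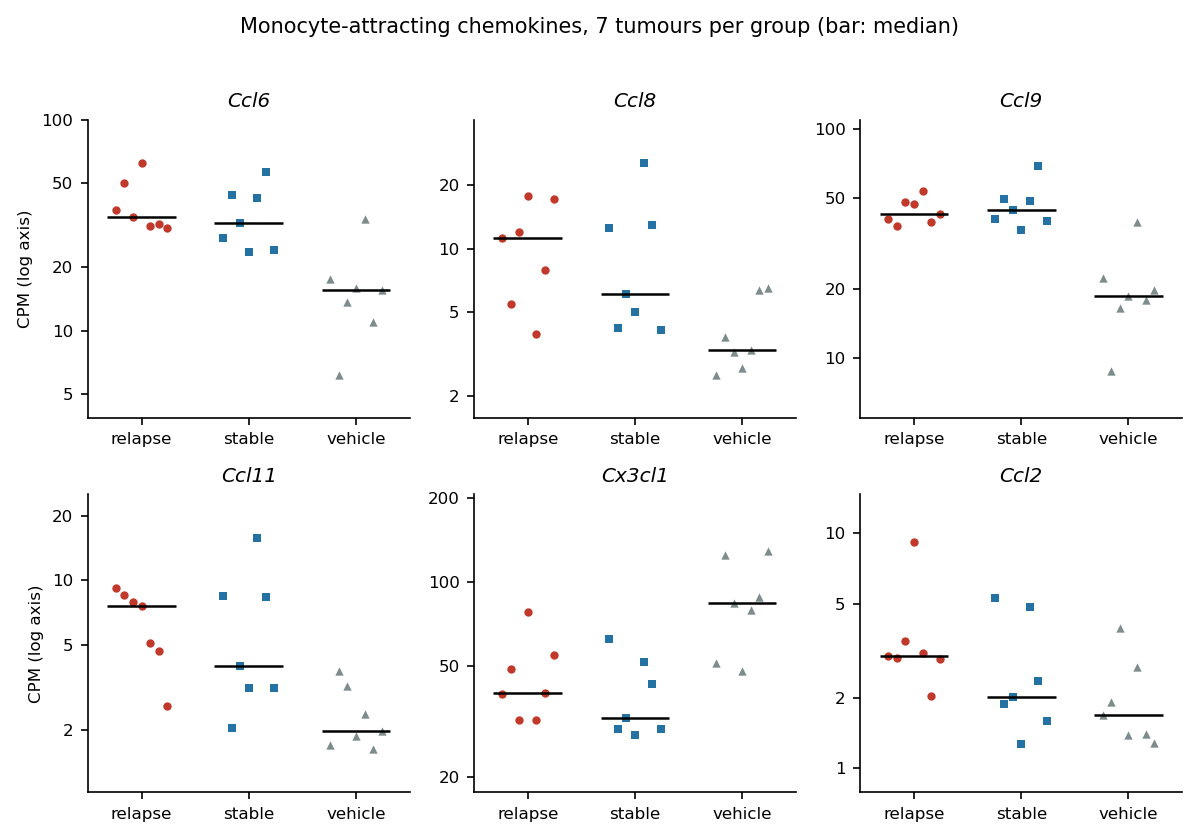
CPM (log axes) of 5 chemokine genes that passed the test and of Ccl2, which did not. Values are for 7 relapse, 7 stable and 7 vehicle tumours, with the group median as a bar. The 5 genes include the eosinophil chemokine gene Ccl11. Ccl9 is at 36.3 CPM or higher in all BYL719 tumours, and in the vehicle group vehicle 5, at 39.4 CPM, alone reaches that level.

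Genes of monocytes did not move as a group. Of 10 in the list, Ccr2 and Fn1 rose and Hp and S100a4 fell in relapse against vehicle, and Ccr2 rose and Hp fell in stable against vehicle. The shares called over all genes were 11.2% in relapse and 15.1% in stable tumours. Fn1, the matrix protein fibronectin, which fibroblasts also make, rose by 1.42 ± 0.37 in relapse (edgeR adjusted p = 0.0180). Hp, the haemoglobin-binding protein haptoglobin, was at 71.5, 234 and 530 CPM in relapse, 57.3, 167 and 268 CPM in stable and 312, 634 and 1139 CPM in vehicle tumours. No stable tumour reached the vehicle range (-2.01, edgeR adjusted p = 0.00248), and 2.87% of all genes did not overlap there. In the relapse group 6 of 7 tumours were below the vehicle range (-1.50, edgeR adjusted p = 0.0149). Which cells carried Hp was not tested. S100a4, a calcium-binding protein of many cell types, was at 232, 93.2 and 36.9 CPM in vehicle 2, 6 and 7, while the remaining vehicle tumours had 4.01 to 11.96 CPM. Its log2 fold change in relapse was -2.43 (edgeR adjusted p = 0.0354), and 0.35 without those 3 tumours. Its exons share 302 bases with Gm42674 on the same strand. Without vehicle 2, 6 and 7 the relapse calls of Fn1 (adjusted p = 0.0678) and Hp (adjusted p = 0.0770) were lost as well, and Plac8, a gene of myeloid cells, became a call in relapse (1.85, edgeR adjusted p = 0.0249) and in stable tumours (1.45, adjusted p = 0.0435), against 0.51 and 0.10 with the 3 tumours. Summed fibroblast markers were 1197 to 4902 CPM in relapse, 1130 to 6106 CPM in stable and 690 to 6697 CPM in vehicle tumours, and their part in the Fn1 value was not tested.

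Of 18 macrophage identity genes none was called in relapse against vehicle, with a median log2 fold change of 0.20, and 1 in stable tumours, with a median of 0.28. That gene was Mertk, a receptor for the engulfment of dead cells (0.91 ± 0.29, edgeR adjusted p = 0.0398; 0.69 with adjusted p = 0.246 without vehicle 2, 6 and 7). Of 15 tested genes of resident and scavenger receptor macrophages, 1 rose and 2 fell in each comparison with vehicle. Beside these counts, 5.42% of all genes rose and 5.8% fell in relapse, and 6.9% rose and 8.16% fell in stable tumours. Cbr2, a carbonyl reductase, fell in both comparisons. It was at 9.36 to 29.9 CPM in relapse, 5.69 to 61.1 CPM in stable and 70.8 to 243 CPM in vehicle tumours. In neither BYL719 group did its level overlap with vehicle, which held for 3.01% of all genes in relapse and 2.87% in stable tumours. Its log2 fold changes were -2.75 ± 0.42 (edgeR adjusted p = 0.00115) and -2.45 ± 0.42 (adjusted p = 0.00119), and the calls remained in all 9 alternative fits and with each tumour left out. Arg1, the enzyme arginase 1, fell as well (-1.27, edgeR adjusted p = 0.0319, and -1.32, adjusted p = 0.0237), but not with voom and title code as a random effect in relapse (-1.13, limma adjusted p = 0.0666). In vehicle tumours Arg1 was at 109 to 651 CPM, and Adgre1, which was not called, at 25.1 to 42.8 CPM. Which cells carried Cbr2 and Arg1 was not tested. Pf4, a chemokine of platelets and some macrophages, rose in relapse (1.31 ± 0.38, edgeR adjusted p = 0.0299), on 23 to 169 reads per tumour. Without the 3 vehicle tumours Pf4 was at 1.44 and not called (edgeR adjusted p = 0.0982). Folr2, a folate receptor of resident macrophages, rose in stable tumours (1.28 ± 0.38, edgeR adjusted p = 0.0314). Without the 3 vehicle tumours Folr2 was at 0.95 and not called (edgeR adjusted p = 0.218).

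Of 9 genes of C1 and the classical pathway, Serping1, the C1 inhibitor, rose in relapse, to 132 ± 45.3 CPM against 61.8 ± 24.5 CPM in vehicle tumours (1.09 ± 0.28, edgeR adjusted p = 0.0156; adjusted p = 0.104 without vehicle 2, 6 and 7), and none passed the test in stable tumours. Serping1 was at 85.6 ± 32.2 CPM in stable tumours (0.47, adjusted p = 0.245). C4b, a complement C4 gene, was not called with all tumours but was without vehicle 2, 6 and 7, higher in relapse (1.73, edgeR adjusted p = 0.0416) and in stable tumours (1.604, adjusted p = 0.0383), against -0.26 and -0.38 with them. Of 7 complement receptor genes, Cr1l, a regulator that protects cells from complement, rose in stable tumours (0.44 ± 0.10, edgeR adjusted p = 0.00810), and none was called in relapse. Among 8 tested genes of the colony-stimulating factors and their receptors, Csf1 in stable tumours was the only call. In the engulfment list, with 10 genes tested, Mertk, its ligand gene Pros1 (0.94, edgeR adjusted p = 0.0431) and the inhibitory signal Cd47 (0.49, adjusted p = 0.0328) rose in stable tumours, and 0 in relapse. Without vehicle 2, 6 and 7 none of these 3 was called in stable tumours (0.69 for Mertk, 1.19 for Pros1 and 0.32 for Cd47). Beside the counts of these lists with all tumours, 5.42% of all genes rose in relapse and 6.9% in stable tumours.

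Inflammatory activation genes numbered 10 among those tested. None was called in relapse, and in stable tumours Cxcl9 and Cxcl10, interferon-induced chemokines of T cells, rose and Tnf fell (-0.84, edgeR adjusted p = 0.0463). Of all genes, 11.2% were called in relapse, and 6.9% rose and 8.16% fell in stable tumours. The Cxcl9 and Cxcl10 calls rest on stable 1, with 199.8 and 74.1 CPM against at most 14.7 and 1.91 CPM in the other stable tumours, and without it the log2 fold changes were 1.49 (adjusted p = 0.172) and 0.21 (adjusted p = 0.762), against 4.05 and 3.66 with it. By the DESeq2 Wald test neither was called (adjusted p = 0.142 and 0.802). Without vehicle 2, 6 and 7 both calls were lost (4.37, edgeR adjusted p = 0.106, and 3.75, adjusted p = 0.128), while Tnf was called (-1.11, adjusted p = 0.0336) and Il1b, an inflammatory cytokine gene, became a call (-1.32, adjusted p = 0.0387, against -0.79, adjusted p = 0.204, with them). Of 12 genes of lipid-associated macrophages, 7 of MHC class II, 10 Fc receptor genes and 7 pan-leukocyte genes, 0 were called against vehicle in either BYL719 group by edgeR. Their medians in relapse and stable tumours were -0.13 and -0.03, -0.56 and -0.50, 0.20 and 0.29, and 0.15 and 0.37. Between relapse and stable 0 genes of any of these lists were called.

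The calls in pathway genes were also set against fits with 1 of the 14 tumours left out and against the other fits. With each tumour left out in turn, 0 calls were lost for Cbr2, Ccl6, Ccl9 and Hp in both groups, Fn1 and Serping1 in relapse, and Arg1, Cx3cl1 and Cr1l in stable tumours. In relapse, Arg1 lost its call in 5 of these fits (log2 fold change -1.44 to -1.10 over the 14), Pf4 in 5 (1.06 to 1.41), Cx3cl1 in 7 (-1.06 to -0.77), S100a4 in 8 (-2.75 to -1.39) and Ccl8 in 9 (1.23 to 1.56). Their highest adjusted p-values were 0.0631 for Arg1, 0.0729 for Pf4, 0.0745 for Cx3cl1, 0.155 for S100a4 and 0.0835 for Ccl8. Ccl11 lost its call without vehicle 6 in relapse (adjusted p = 0.0526) and without stable 5 in stable tumours (0.0531). In stable tumours Folr2 lost it in 6 fits (0.93 to 1.44), Mertk in 8 (0.78 to 1.06), Cd47 in 8 (0.42 to 0.54), Ccl8 in 8 (0.88 to 1.48), Pros1 in 9 (0.53 to 1.11) and Tnf in 10 (-0.93 to -0.69), with adjusted p-values of up to 0.0885, 0.0875, 0.0646, 0.116, 0.103 and 0.0915 in that order. With counts summed over each title code, the relapse calls of Ccl8, Ccl11, Cx3cl1, Fn1 (adjusted p = 0.0983), Hp (0.0503) and Pf4 (0.158) were lost. In stable tumours Ccl6, Ccl9, Cbr2 and Hp alone of the genes named above from the pathway lists kept their calls with these sums, Ccr2 and Csf1 being given before; Arg1 had an adjusted p = 0.0672 and Cr1l 0.0634. With only the 2 groups compared, Arg1, Ccl8, Ccl11, Cxcl9, Cxcl10, Folr2, Mertk, Pros1 and Tnf were not called in stable tumours (adjusted p = 0.0561 to 0.0837), nor S100a4 in relapse (0.0719). All adjusted p-values are edgeR's.

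The 7 macrophage genes varied together between tumours, apart from Cd68. As a description over the 21 tumours in log2(CPM + 1), which share the scaling and in part a title code, Pearson r was 0.42 to 0.91 (median 0.67) for the 15 pairs without Cd68 and 0.24 to 0.47 for the 6 pairs with it. The highest was that of C1qb and C1qc, at 0.91. The genes outside the 10 with the highest mean r to the 7 were Was (0.72), Lgmn (0.72), Pld4 (0.71), Gngt2 (0.69), Ms4a6c (0.69), Lpxn (0.69), Ptprc (0.69) and Arhgap31 (0.69). Was encodes a regulator of actin in blood cells, Lgmn a lysosomal protease and Ptprc the leukocyte antigen CD45. None of Was, Lgmn, Pld4, Ms4a6c and Ptprc was called in any comparison. Whether Gngt2, Lpxn and Arhgap31 were called is not given here. The genes most like single members were chosen after their values were seen. Cd68 was most like Itgb2 (r = 0.97), the beta-2 integrin of leukocytes, and Slc37a2 (r = 0.96). Ccr2 was most like 9930111J21Rik2 and Kmo (both r = 0.90) and like Ccl8 (r = 0.89). Kmo encodes an enzyme of tryptophan breakdown. Ccl2 was most like Ccl7 (r = 0.90), the neighbouring chemokine gene that also signals through CCR2. Csf1 was most like Snx19 (r = 0.87) and Cul4a (r = 0.85), neither of them a macrophage marker.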

How the data were processed

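Polyadenylated RNA of 21 tumours was sequenced from stranded TruSeq libraries as single reads of 50 bases, per the labels' protocols. The table deposited by the authors holds whole-number counts, not normalized, with a gene per row and a tumour per column. Some rows (10202 of 24028) carry an extra leading cell, and every row was read from its last 25 cells. The submitters' processing notes name build mm10 and the tools edgeR, Picard 2.9.2, SAMtools 1.3.1 and STAR 2.5.2a. What each did, the annotation, the strand setting and the counting of multiply matching reads are not stated there.

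From the counts, genes were filtered with filterByExpr (15792 kept), scaled by TMM and fitted over all 21 tumours with edgeR 4.0.16 in R 4.3.3 (quasi-likelihood F test, group only), with Benjamini-Hochberg adjustment over all genes kept. Genes with an adjusted p under 0.05 are called, and only of these is it written that they rose or fell. CPM use TMM-scaled totals, and RPKM the gene length in the deposited table. Standard errors (SE) are the absolute log2 fold change over the root of F. Ratios and relations use log2(CPM + 1). Alternatives used DESeq2 1.42.0 and limma 3.58.1 (voom), other scalings, no filter, fewer tumours and counts summed per title code. Tumours of 1 group differed by at least 18.6 in chi-square per degree of freedom, so that none was counted as a repeat. The scripts were tested on simulated data.

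The 10 genes, the lists and the tests were chosen with earlier results of these data known. Named genes are the 10, up to 4 genes of lowest p among those called in each pathway list, and the 8 genes of highest mean r with the 7 macrophage genes. Ccl8, the genes most like single members and the 5 genes that became calls without vehicle 2, 6 and 7 (C4b, Plac8, Cxcl12, Cxcl14, Il1b) fall outside this rule and were named after their values were seen. The result of 1 list, on chemokine receptors, is not reported here.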

Additional observations from a re-analysis of the deposited data

Results flagged for a closer look

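In 114 groups of 7 tumours, 1 for each gene or ratio and group, the highest or lowest tumour's gap to its neighbour was set against the group's range. In 18 groups a tumour was past Dixon's 95% limit. That limit flags about 1 in 20 groups of normally distributed values, while CPM were entered without a log. The 114 groups also share tumours and are not independent, so that 18 cannot be set against this rate. Relapse 4 stood apart with the highest Mrc1 (399 CPM), Ccl2 (9.18 CPM), Hp (530 CPM) and S100a4 (23.0 CPM) of its group. Stable 5 stood apart with the highest Ccr2 (104 CPM), Ccl8 (25.6 CPM) and Pf4 (7.55 CPM), and its log2 ratio of Ccr2 to Adgre1 was 0.87. Stable 1 stood apart with Cxcl9 (199.8 CPM), Cxcl10 (74.1 CPM) and Pros1 (920 CPM), and stable 6 with Ccl9 (68.5 CPM). Relapse 2 was low in Cbr2 (9.36 CPM) and relapse 7 high in Cxcl9 (22.7 CPM). Among vehicle tumours, vehicle 5 was high in Ccl6 (33.6 CPM) and Serping1 (113 CPM), vehicle 2 in S100a4 (232 CPM) and vehicle 7 in Cxcl10 (1.38 CPM).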

How the results depend on the processing

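Of the 10 genes, 1 was called in relapse against vehicle, and 0 without vehicle 2, 6 and 7 or with counts summed per title code; leaving out each tumour gave 0 to 1. In stable against vehicle 2 were called, 1 without vehicle 2, 6 and 7, 0 with summed counts, and 1 with a replicate block, under which Csf1 (-0.65) had an adjusted p = 0.0539. The block also ended the calls of Arg1 in relapse (adjusted p = 0.0617) and in stable tumours (0.0657), and in relapse those of Ccl11, Cx3cl1, S100a4 and Ccl8. The replicate numbers did not pair the tumours: same-numbered tumours correlated over 0.1 in 1 or 2 of 7 pairs per comparison. With voom and title code as a random effect, the relapse calls of Arg1, S100a4 and Ccl8 were lost. In stable tumours those of Ccl8, Ccl11, Cxcl9, Cxcl10, Folr2, Mertk, Pros1 and Tnf were lost in that fit (limma adjusted p = 0.0607 to 0.416). Over all genes, calls in relapse against vehicle were 1772, and 987 with the replicate block, 527 without vehicle 2, 6 and 7, 955 with summed counts, 1160 without vehicle 2 and 1156 without vehicle 6. In stable against vehicle they were 2378, and 1251, 847 and 592 in the first 3 of these fits and 964 with only the groups compared. Of the ratios to Adgre1, 3 passed the test, and 2 without vehicle 2, 6 and 7. With means per title code 0 passed, where the few codes limit how low an exact p can be. Of the relations, 3 passed the permutation test by both coefficients, and 0 without the 2 tumours farthest on x. With means per title code that of Ccl2 with Adgre1 was lost.

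Values that changed sign were small or not called, except S100a4 in relapse against vehicle (0.35 without vehicle 2, 6 and 7); the cause was not tested. In relapse against vehicle C1qb was 0.059 with upper quartile factors, 0.064 without the 3 vehicle tumours, 0.033 with summed counts and 0.0022 with only the groups compared, and Cd68 was -0.068 without the 3 vehicle tumours. In relapse against stable C1qc was 0.018 with the replicate block and with voom and 0.045 with summed counts, and Cd68 0.12 with summed counts. Relative to Adgre1 without the 3 vehicle tumours, Cd68 differed by -0.19 in relapse and -0.54 in stable and Mrc1 by 0.13 in stable tumours against vehicle; with means per title code Cd68 was -0.23 and Mrc1 0.0087 in stable tumours. With Csf1r in place of Adgre1, stable against vehicle gave 0.31 for Mrc1 and 0.21 for C1qa, and relapse against stable -0.063 for Cd68, -0.071 for C1qa and -0.10 for Ccr2. With each tumour left out, relapse against vehicle ranged from -0.020 to 0.13 for Adgre1, -0.068 to 0.062 for C1qb and -0.0092 to 0.19 for Csf1r, and stable against vehicle from -0.034 to 0.18 for Csf1r. Relapse against stable ranged from -0.22 to 0.037 for C1qa, -0.14 to 0.084 for C1qc, -0.62 to 0.10 for Ccr2, -0.37 to 0.11 for Cd68, -0.073 to 0.13 for Csf1r and -0.10 to 0.45 for Mrc1. Cbr2 and Ccl9 in both BYL719 groups, and Hp in stable tumours, were called in all 9 alternative fits.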
